A study of Mus musculus with 6 samples.

Results

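The odorant receptor (OR) genes Olfr1141 to Olfr1274 are 100 members of the large OR cluster on mouse chromosome 2. They were chosen by name alone, as genes whose symbol is Olfr followed by a number within this range and no pseudogene suffix, out of 1086 intact OR genes and 24661 genes in all. RNA-Seq was done on olfactory mucosa, the sensory epithelium with its surrounding tissue, from 3 wild-type and 3 RTP1,2DKO mice of strain C57BL/6 at postnatal day 21. In RTP1,2DKO mice both copies of Rtp1 and Rtp2 are null, their coding regions having been replaced by cassettes, a puromycin cassette in the case of Rtp2. By the study's methods the mutant line came from 129/B6 hybrid ES cells and was kept by backcrossing to C57BL/6, and the wild-type animals were littermates matched for sex.

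ORs are G-protein coupled receptors that detect odorants, and each mature olfactory sensory neuron (OSN) expresses a single OR gene, from a single allele. A chosen OR must leave the endoplasmic reticulum to signal, and RTP1 and RTP2 are membrane-associated proteins that promote its transport to the cell surface. An OR's RNA in whole tissue therefore reflects both how many OSNs express it and how much RNA each one holds, which cannot be told apart here.

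Total counts were between 31125410 and 41636996 per mouse, of which 280989 to 374118 fell on intact ORs. Rtp1 had 19860 ± 5933 counts (SD, n = 3; normalized to all genes) in the wild-type and 95.3 ± 12.3 in RTP1,2DKO, and Rtp2 had 8416 ± 1185 and 45.2 ± 16.8. All 5 markers of mature OSNs, Omp and Stoml3 among them, fell in RTP1,2DKO (edgeR's quasi-likelihood test), and their summed normalized count was 149500 to 173600 in wild-type and 75660 to 82400 in RTP1,2DKO mice. Of 4 markers of immature OSNs, Gap43 and Gng8 rose, and the sum of the 4 was 22450 to 27190 against 30760 to 32690. Of 31 markers of other cell types, 1 was called, the globin gene Hbb-bt, which rose. The sum of 4 gland genes varied most within groups, from 2021000 to 6596000 in wild-type and from 2962000 to 6327000 in RTP1,2DKO mice. The part of these differences in the results on the chromosome 2 ORs was not tested.

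Of the 100 members, 98 are in the GENCODE M21 annotation (GRCm38), all as protein-coding genes. They span chromosome 2 from 87753056 to 90292841, or 2.54 Mb, with 31 on the plus and 67 on the minus strand. Their coding sequences are 909 to 1008 bases long, with a median of 933, the short single-exon frame of a receptor that crosses the membrane 7 times. RefSeq synonyms place 93 members in 16 MOR families, groups of ORs with related sequences. The largest of these are MOR233 with 17 members, MOR231 with 14, MOR174 with 12 and MOR225 with 11. ORs of one family resemble each other closely, so reads can fit more than 1 gene. The estimated counts were whole numbers in all mice, within 0.01, for 20 members, while for the other 80 reads had been divided between genes in at least 1 mouse. Whole counts do not show that a gene's reads fit no other gene.

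Wild-type levels covered a wide range. The level per length was expressed as FPKM, the estimated count scaled by the effective length of the gene's longest transcript and by the library's total count. The median member stood at 1.91 FPKM in wild-type mice, beside 1.70 for all intact ORs, and at 0.820 FPKM in RTP1,2DKO, beside 0.743. The highest member was Olfr1197 (chromosome 2, 88726903 to 88732366, minus strand, MOR225), with 23.2, 42.2 and 26.7 FPKM in wild-type mice 1 to 3 and 52.5, 42.4 and 45.6 FPKM in RTP1,2DKO mice 1 to 3. Every RTP1,2DKO mouse thus exceeded every wild-type mouse, although wild-type mouse 2 was nearly level with the lowest of them. Olfr1197 took 8.60, 12.7 and 11.7% of the counts on the 100 members in the wild-type mice, and between 20.5 and 24% in RTP1,2DKO.

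The next levels in the wild-type were 14.5 ± 2.47 FPKM (SD, n = 3) for Olfr1213, 11.4 ± 0.937 for Olfr1247, 11.1 ± 2.89 for Olfr1260, 10.9 ± 1.83 for Olfr1173, 10.1 ± 0.528 for Olfr1264, 9.37 ± 1.32 for Olfr1156 and 6.56 ± 1.03 for Olfr1195. From Olfr1247 to Olfr1156, members next to each other in this order differed by less than the larger of their SDs. These 8 members together held 36.3, 35.8 and 38.7% of the counts on the members in wild-type mice, and 50.7, 51.1 and 52.7% in RTP1,2DKO. In the deposited TPM values, which weight each transcript by its own length, Olfr1213 stood first and Olfr1197 at rank 3, and 5 of the 8 members were the same.

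**Figure D1:**
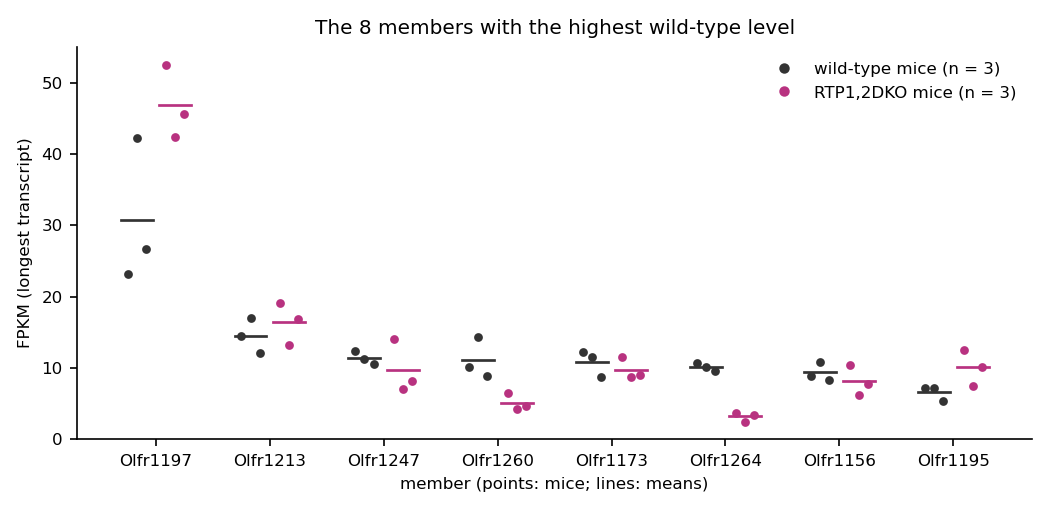
FPKM (linear axis from 0) of the 8 members with the highest wild-type level in each of 3 wild-type and 3 RTP1,2DKO mice; points are mice and lines are group means. Olfr1197 stands above the other 7 in every mouse, and Olfr1264 is at 10.1 FPKM in the wild-type and 3.19 FPKM in RTP1,2DKO on average.

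At the other end of the range, Olfr1248 had no count in any mouse. A count of 0 allows up to 3 counts per library where reads can be told from those of other genes. That is 0.000802 to 0.00107% of the counts on intact ORs, and expression of Olfr1248 was not detected at this depth. Its coding sequence is 94.9% identical to that of Olfr1250 and 93.5% to that of Olfr1252. Whether reads of Olfr1248 were assigned to these was not tested. The lowest members with a count were Olfr1245, Olfr1145 and Olfr1272, each with a mean of no more than 4.26 normalized counts in either group. In all, 91 members averaged at least 10 counts over the 6 mice, and 99 entered the tests.

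How each OR changed relative to the typical intact OR on loss of RTP1 and RTP2 was addressed by scaling the counts to intact ORs only. The scale was a median of ratios over intact ORs, so a call is not a change in an OR's share of the OR counts. The scaling factors were 1.13 to 1.65 in wild-type and 0.689 to 0.769 in RTP1,2DKO mice. The summed counts on intact ORs were 280989 to 374118 and 286788 to 311250. In this comparison 26 of 99 members had lower counts in RTP1,2DKO and were called underrepresented, and 23 had higher counts and were called overrepresented (edgeR's quasi-likelihood test, Benjamini-Hochberg adjusted p under 0.05 over 1078 intact ORs), while 50 were not called. Among all intact ORs tested, 25.9% were underrepresented and 29.1% overrepresented. The shares of the members, 26.3 and 23.2%, lay near or below these. The median log2 fold change was -0.12 for the members and -0.12 for all intact ORs. In 60 of the 99 members the 2 groups did not overlap, with RTP1,2DKO lower in 32 and higher in 28, and 60.2% of the intact ORs tested had groups that did not overlap.

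The split between the directions rested on the scaling. The study, with read counts normalized to those on intact ORs, reported more underrepresented than overrepresented ORs. With the summed count of all intact ORs as the library's scale, which compares shares of the OR counts, 52 members were underrepresented and 13 overrepresented. The shares of all intact ORs called under this scaling were not set beside these counts. They therefore do not set the members against other ORs. The 20 members described next, 10 in each direction, kept their calls under this scaling. They were chosen among called members whose groups did not overlap, so the separation of their groups follows from the choice.

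The member with the largest decrease was Olfr1162 (chromosome 2, 88045920 to 88051129, minus strand, MOR174). Its counts normalized to intact ORs were 263, 287 and 335 in the wild-type and 62.1, 62.4 and 71.1 in RTP1,2DKO mice. The groups were far apart, with a log2 fold change of -2.18 (SE 0.26, adjusted p = 1.8e-09, edgeR's quasi-likelihood test), or 0.221 of the wild-type level. Olfr1155 (87941645 to 87945137, MOR174) had 76.1, 110 and 99.2 against 30.4, 20.8 and 33.4, a log2 fold change of -1.76. It is among the members with whole counts, so the estimates did not divide a read between it and a similar gene. Its neighbour Olfr1154 (87901256 to 87905166, MOR173) had 113, 135 and 177 against 43.6, 36.4 and 46.4, a log2 fold change of -1.74.

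The other 7 of these underrepresented members were Olfr1225, Olfr1206, Olfr1148, Olfr1255, Olfr1157, Olfr1253 and Olfr1252. Their log2 fold changes ran from -1.55 for Olfr1225 to -1.26 for Olfr1252. By the choice of members, no RTP1,2DKO mouse reached the lowest wild-type mouse in any of them. The narrowest gap was that of Olfr1255, with 85.0 in wild-type mouse 1 and 55.2 in RTP1,2DKO mouse 3. Together with the 3 members above they fall into 7 families, with MOR174 supplying 3 of the 10, and Olfr1252 has no family name in RefSeq.

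The largest increase was that of Olfr1239 (89417030 to 89420407, minus strand, MOR231). It had 32.1, 48.6 and 37.2 normalized counts in the wild-type and 140, 177 and 225 in RTP1,2DKO mice. It too had whole counts, and its log2 fold change was 2.19 (SE 0.28, adjusted p = 9.4e-09, edgeR's quasi-likelihood test), or 4.56 times the wild-type level. Olfr1168 (88181880 to 88186919, plus strand, MOR174) had 113, 115 and 85.9 against 317, 378 and 450, a log2 fold change of 1.87. Olfr1168 lies in the same family as Olfr1162, the member with the largest decrease.

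Of the most abundant members, Olfr1197 had 1972, 2872 and 2715 normalized counts in the wild-type and 7273, 7727 and 8539 in RTP1,2DKO. Its log2 fold change was 1.64 (SE 0.26, adjusted p = 3.5e-07, edgeR's quasi-likelihood test). Olfr1226 (89188839 to 89200048, MOR233) had 962, 754 and 719 against 2370, 1720 and 2653, a log2 fold change of 1.47. The lowest RTP1,2DKO mouse stood well above the highest wild-type mouse in both.

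The remaining 6 of these overrepresented members were Olfr1269, Olfr1193, Olfr1209, Olfr1250, Olfr1243 and Olfr1195, with log2 fold changes between 1.61 and 1.86. Olfr1269 was the least abundant of them, with 26.9, 43.7 and 17.7 against 116, 125 and 84.2 normalized counts. Its groups were separate, as the choice required.

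**Figure D2:**
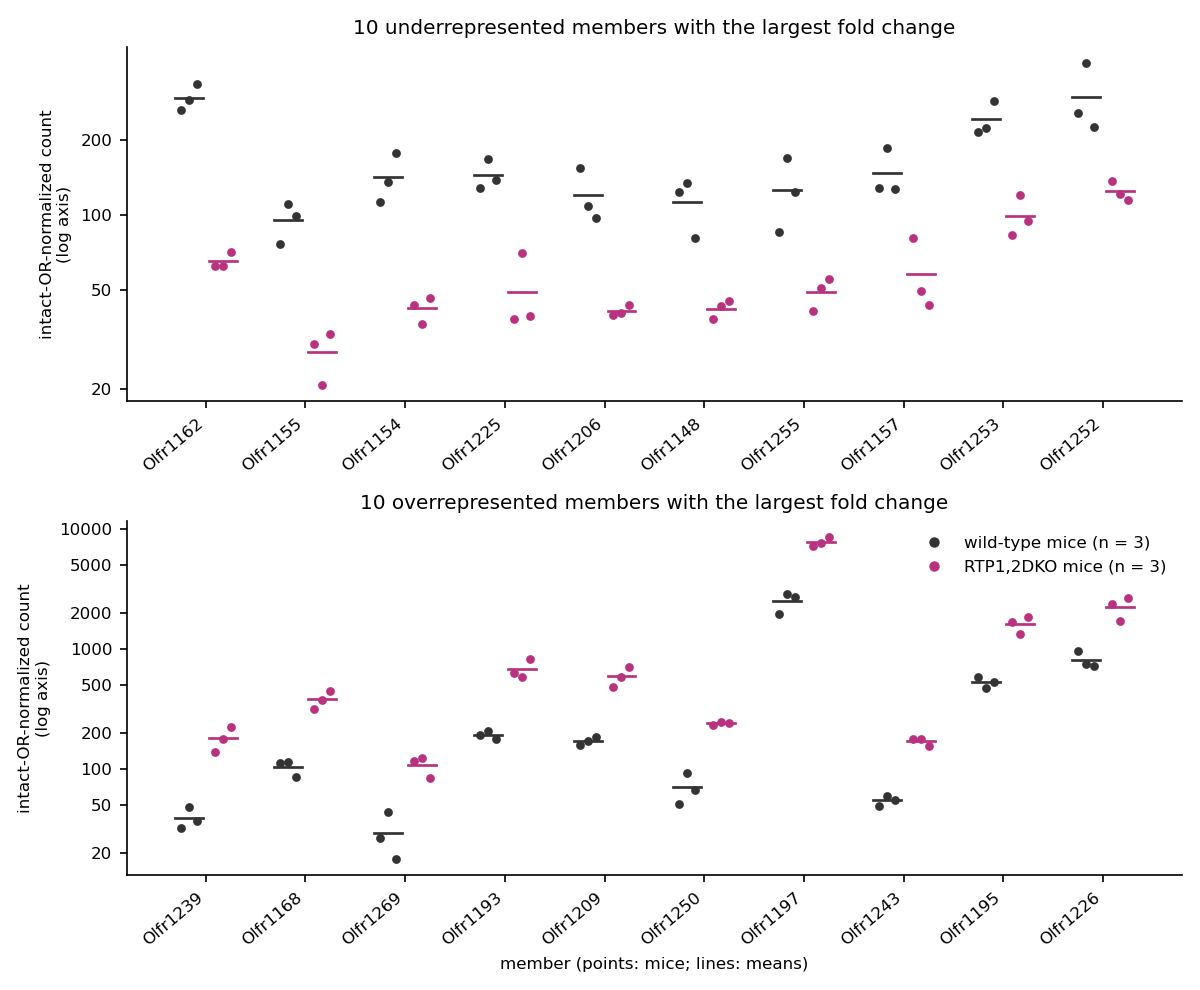
Counts normalized to intact ORs (log axis) of the 10 underrepresented (top) and 10 overrepresented (bottom) members with the largest fold changes; points are mice and lines are means of 3 mice per group. Members were chosen so that every RTP1,2DKO mouse lies below every wild-type mouse (top) or above every wild-type mouse (bottom). For Olfr1162 the values are 62.1 to 71.1 against 263 to 335.

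Most of the 8 members highest in the wild-type were overrepresented in the scaling by medians of ratios, Olfr1197 and Olfr1195 above among them. Olfr1213 had a log2 fold change of 1.18, Olfr1173 of 0.84, Olfr1156 of 0.78 and Olfr1247 of 0.72, all overrepresented, whereas Olfr1264 was underrepresented at -0.68. With the summed count as the scale, Olfr1213, Olfr1173 and Olfr1156 were no longer called, and Olfr1247 turned to -0.046 and was not called. The call of Olfr1264 was lost without wild-type mouse 3 (adjusted p = 0.060, edgeR's quasi-likelihood test), and that of Olfr1247 without wild-type mouse 2 or RTP1,2DKO mouse 1 (0.059 and 0.053). Olfr1260 had 506, 572 and 524 against 527, 452 and 515 normalized counts, groups that overlapped, and was not called at -0.10. Over the 91 members averaging at least 10 counts, Spearman's rho between the wild-type level and the log2 fold change was -0.092, given as a description, since both values come from the same libraries.

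The members' changes covered a narrower range than those of other ORs. Among the 91 members averaging at least 10 counts, log2 fold changes ran from -2.18 to 2.19, with quartiles at -0.74 and 0.78. The 869 other intact ORs over this count ran from -3.37 to 2.81, with quartiles at -0.88 and 1.14. Of these others, 20 lay below the lowest member and 9 above the highest. A range tends to widen with the number of genes, and the others were 869 to 91 members. An absolute log2 fold change over 2 was found in 2 members, or 2.20%, and in 50 other ORs, or 5.75%. These are descriptions of the genes of these 6 libraries, and the difference in spread was not tested.

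**Figure D3:**
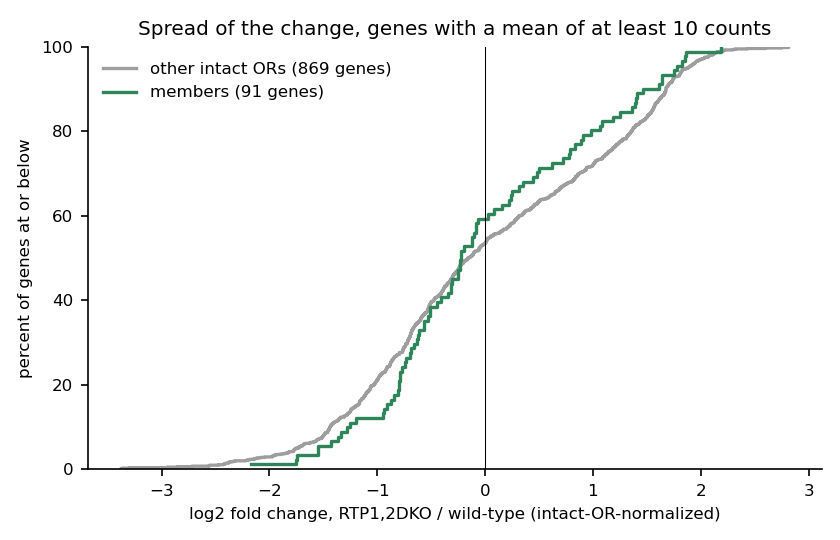
Cumulative percent of genes (vertical axis) at or below each log2 fold change of RTP1,2DKO over wild-type, normalized to intact ORs (horizontal axis), for 91 members and 869 other intact ORs, all averaging at least 10 counts. The curve of the members begins at -2.18 and ends at 2.19, and the curve of the other ORs extends from -3.37 to 2.81.

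Members with opposite changes were interspersed along the cluster. The values by position and strand cover the 98 members in GENCODE and leave out Olfr1182, which was not called, and Olfr1213, which was overrepresented. For 95 pairs of neighbours in gene order, Pearson's r between their log2 fold changes was 0.037, given as a description, since each member enters up to 2 pairs. Neighbours with the same call formed 8 runs of at most 3 members. The longest were Olfr1218, Olfr1219 and Olfr1220, all overrepresented over 54.5 kb, and Olfr1262, Olfr1263 and Olfr1264, all underrepresented over 25.4 kb. In the first 25 of these members in gene order, Olfr1141 to Olfr1179, 8 were underrepresented and 3 overrepresented, with a median log2 fold change of -0.45. In the next 25, between Olfr1180 and Olfr1215, these were 3 and 6, with a median of 0.01. The following 24, Olfr1216 to Olfr1245, held 6 and 8, and the last 24, Olfr1246 to Olfr1272, held 9 and 5. The plus strand held 9 underrepresented and 4 overrepresented of 31 members, and the minus strand 17 and 18 of 67.

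**Figure D4:**
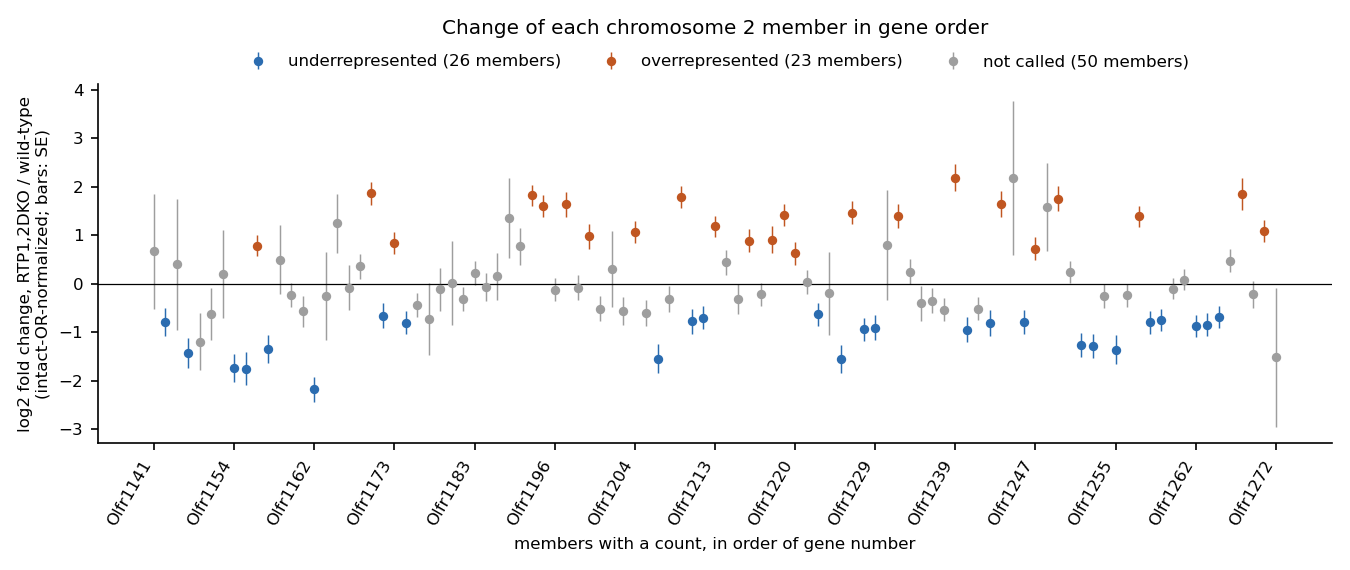
Log2 fold change of RTP1,2DKO over wild-type, normalized to intact ORs, of the 99 members with a count (vertical axis; bars are standard errors, 3 mice per group) in order of gene number (horizontal axis). The 26 underrepresented, 23 overrepresented and 50 uncalled members alternate along the cluster, between Olfr1162 at -2.18 and Olfr1239 at 2.19.

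The MOR families also held both directions. MOR233 had 6 underrepresented and 5 overrepresented of 17 members, from Olfr1225 at -1.55 to Olfr1226 at 1.47. MOR231 had 3 and 4 of 14, and MOR174 had 5 and 2 of 12, from Olfr1162 at -2.18 to Olfr1168 at 1.87. In MOR225, 10 of 11 members were not called, with Olfr1197 as the single exception. MOR230, with 8 members, had 1 underrepresented and 3 overrepresented, and its median log2 fold change was 0.27. MOR232 had 3 and 2 of 7 members, with a median of -0.56.

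Similarity of the coding sequence was compared directly, with nucleotide identity over the aligned coding sequences of GENCODE M21 transcripts. The nearest other member was 65.7 to 97.0% identical, with a median of 87.7%, and 29 pairs among 40 members reached 90%. In 7 of these pairs both members were called, 5 times in the same direction and 2 times in opposite ones. The median absolute difference between the log2 fold changes was 1.03 over the pairs of at least 90% identity and 1.00 over all pairs of members. Both medians leave out the pairs with Olfr1248, which had no count. The 2 pairs with opposite calls and the closest pair of all are described in turn, and for 2 of these 3 the stretch of 120 bases with the most differences is given.

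Olfr1250 and Olfr1252 shared 911 of 942 coding bases, or 96.7%, and were called in opposite directions. Olfr1250 had 51.5, 93.5 and 67.3 normalized counts in the wild-type and 231, 246 and 244 in RTP1,2DKO mice, a log2 fold change of 1.76 (SE 0.26, adjusted p = 1.3e-07, edgeR's quasi-likelihood test). Olfr1252 had 257, 405 and 225 in the wild-type and 136, 121 and 115 in RTP1,2DKO, which gave a log2 fold change of -1.26 (SE 0.25, adjusted p = 2.7e-05, edgeR's quasi-likelihood test). Neither gene's groups overlapped. The more abundant gene of the pair changed with the genotype: the log2 ratio of Olfr1250 to Olfr1252 was -2.31, -2.11 and -1.73 in wild-type mice and 0.76, 1.02 and 1.09 in RTP1,2DKO (exact permutation test, two-sided, p = 0.1, the smallest that 3 mice against 3 allow). The pair was chosen for its opposite calls, so this ratio is a description.

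Olfr1242 and Olfr1243, both of MOR231, matched at 850 of 918 aligned positions, or 92.6%, with 65 different bases and 3 gap positions. Bases 676 to 795 of both coding sequences, counted from the A of the start codon, hold 18 of the differences, in capitals, in the single coding exon on the minus strand of GRCm38 at chr2:89493516-89493635 for Olfr1242 and chr2:89527614-89527733 for Olfr1243.
Olfr1242: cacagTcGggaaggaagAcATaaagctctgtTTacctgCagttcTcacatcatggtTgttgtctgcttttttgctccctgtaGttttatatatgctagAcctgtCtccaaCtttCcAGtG
Olfr1243: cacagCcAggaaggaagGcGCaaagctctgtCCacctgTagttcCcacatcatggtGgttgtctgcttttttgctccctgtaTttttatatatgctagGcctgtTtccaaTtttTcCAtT
Olfr1242 had 110, 139 and 127 normalized counts in the wild-type and 83.3, 63.7 and 68.2 in RTP1,2DKO mice, a log2 fold change of -0.80 (adjusted p = 0.011, edgeR's quasi-likelihood test). Olfr1243 had 49.2, 60.1 and 54.9 against 177, 178 and 157, a log2 fold change of 1.64 (adjusted p = 9.4e-07, edgeR's quasi-likelihood test). Here too the more abundant gene of the pair in every wild-type mouse was the less abundant one in every RTP1,2DKO mouse.

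The closest pair of all was Olfr1196 and Olfr1197, both of MOR225, with 97.0% identity and 28 different bases. Bases 523 to 642 hold 9 of these, in capitals, in the single coding exon on the minus strand of GRCm38 at chr2:88700686-88700805 for Olfr1196 and chr2:88728956-88729075 for Olfr1197.
Olfr1196: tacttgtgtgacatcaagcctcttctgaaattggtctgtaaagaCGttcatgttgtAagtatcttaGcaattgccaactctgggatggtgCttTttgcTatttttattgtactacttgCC
Olfr1197: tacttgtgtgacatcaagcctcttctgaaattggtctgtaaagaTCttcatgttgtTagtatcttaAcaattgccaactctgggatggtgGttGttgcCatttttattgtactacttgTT
Olfr1196 had 700, 370 and 586 normalized counts in the wild-type and 611, 387 and 524 in RTP1,2DKO mice. These groups overlapped, and Olfr1196 was not called, with a log2 fold change of -0.12 beside the 1.64 of Olfr1197. In each of these 6 genes the estimated counts were not whole, so kallisto had divided reads between genes.

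**Figure D5:**
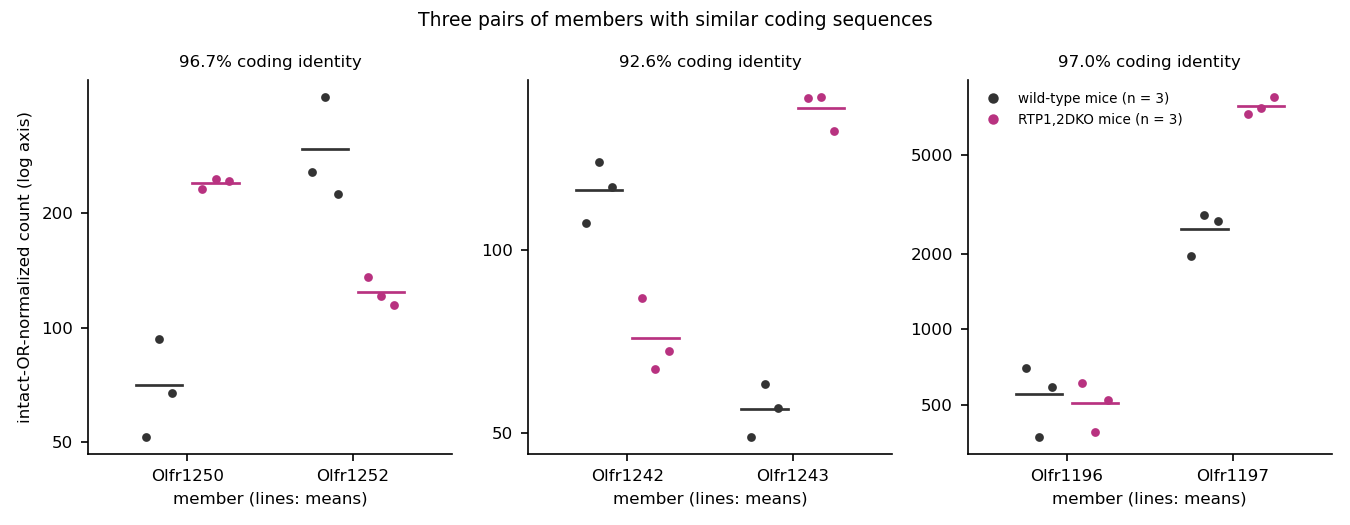
Counts normalized to intact ORs (log axes) of 3 pairs of members with 96.7, 92.6 and 97.0% identical coding sequences; points are mice and lines are means of 3 mice per genotype. Olfr1250 rises from 70.8 to 240 on average as Olfr1252 falls from 296 to 124, Olfr1243 and Olfr1242 cross in the same way, and Olfr1197 rises while the groups of Olfr1196 overlap.

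Over the 6 mice, the log2 normalized counts of Olfr1162 were most like those of Olfr1154 (Pearson's r = 0.989), Olfr1155 (0.971) and Olfr1253 (0.964). Those of Olfr1239 were most like Olfr1231 (0.996), Olfr1257 (0.993) and Olfr1197 (0.990). The 6 points of each gene share the contrast between genotypes, so genes with large changes in the same direction resemble each other by this measure.

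With size factors over all genes, the comparison asks whether a member's RNA changed within the whole tissue. Relative to the scaling to intact ORs, the log2 fold changes of ORs fell by 0.97 at the median. In this fit 49 of 99 members were downregulated and 6 upregulated (edgeR's quasi-likelihood test, adjusted p under 0.05 over 22152 genes). These are 49.5 and 6.06% of the members. The backgrounds were 3.15% down and 0.46% up among all genes, and 38.3% down and 4.36% up among the intact ORs. The median log2 fold change was -1.07 for the members, -1.08 for all intact ORs and 0.02 for all genes tested. All 26 underrepresented members were also downregulated. Of the 23 overrepresented members, 6 were upregulated and 17 were not called, and of the 50 members uncalled among ORs, 23 were downregulated.

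The 6 upregulated members were Olfr1239 with a log2 fold change of 1.19 (adjusted p = 0.044, edgeR's quasi-likelihood test), Olfr1168 with 0.87, Olfr1193 with 0.84, Olfr1209 with 0.80, Olfr1197 with 0.66 and Olfr1195 with 0.65. Their adjusted p-values from edgeR's quasi-likelihood test lay between 0.015 and 0.047. The number of upregulated members depended on single mice. It was 2 without wild-type mouse 1, 0 without wild-type mouse 3, 1 without RTP1,2DKO mouse 1, 0 without RTP1,2DKO mouse 3, and 2 with a filter on low counts. The shares of all genes and of intact ORs upregulated in these fits were not set beside these counts. The largest decrease was again that of Olfr1162, at -3.14 (SE 0.20, adjusted p = 5.5e-06, edgeR's quasi-likelihood test), or 0.113 of the wild-type level.

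Summed over the members, the groups overlapped. The 100 members took 9.91, 9.98 and 9.33% of the counts on intact ORs in wild-type mice and 9.34, 8.26 and 8.08% in RTP1,2DKO, with means of 9.74 ± 0.356 and 8.56 ± 0.683% (SD, n = 3; exact permutation test, two-sided, p = 0.2). RTP1,2DKO mouse 1 was just above wild-type mouse 3. When the most abundant OR, Olfr907, which is not a member, was left out of the total, the shares were 12.4 ± 0.359 and 11.9 ± 0.440%, and the difference went from -1.18 to -0.504 percentage points (exact permutation test, p = 0.2). Without Olfr1197, chosen for this after its increase was known, the shares were 9.05, 8.72 and 8.24% against 7.42, 6.28 and 6.19%, a description with no test. As a share of all counts, the members held 0.0933 ± 0.0178% in the wild-type and 0.0704 ± 0.0139% in RTP1,2DKO (exact permutation test, p = 0.2).

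The other part of the chromosome 2 cluster, 104 intact ORs from Olfr987 to Olfr1140, was examined in the same way. In the fit over all genes 45 of them (43.3%) were down and 3 (2.9%) up, beside 38.3 and 4.36% of all intact ORs. Normalized to intact ORs, 36 (34.6%) were underrepresented and 29 (27.9%) overrepresented, beside 25.9 and 29.1% of all intact ORs. The median log2 fold change of this part was then -0.41. Its log2 fold changes ran from -6.88 to 5.52, beyond the range of the members on both sides, with genes of few counts included. The log2 ratio of the members' counts to those of this part was 0.80, 0.79 and 0.84 in the wild-type and 0.89, 0.67 and 1.02 in RTP1,2DKO mice, a mean difference of 0.05 (exact permutation test, two-sided, p = 0.7).

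Genes that act with the ORs were examined in the fit over all genes. A list of 26 genes held those of odor transduction and receptor transport together with Gap43, Dpysl3 and Stmn2, which are genes of growing neurons, and Trib3, a stress-response gene. Of these 26, 14 fell and 2 rose, with a median log2 fold change of -0.84. Those that fell included Adcy3, the adenylyl cyclase of the odor response, with 13900 ± 1780 normalized counts (SD, n = 3) in the wild-type and 5219 ± 107 in RTP1,2DKO. They also included Cnga2, a subunit of the cyclic-nucleotide-gated channel, with 18580 ± 2541 and 8943 ± 836, and Rtp1 and Rtp2 themselves. Gng8 and Gap43, the 2 that rose, are also on the list of immature OSN markers. Of 20 genes of OR choice and silencing, 1 fell and none rose (19 not called by edgeR's quasi-likelihood test), with a median log2 fold change of 0.07. The gene that fell was Ric8b, an exchange factor for the olfactory G protein, which is on both lists. Lhx2, a homeodomain factor that binds OR enhancers, had 6104 ± 1110 normalized counts in the wild-type and 6968 ± 848 in RTP1,2DKO, and Kdm1a, the demethylase that acts in OR activation, had 3035 ± 169 and 3437 ± 138. Neither was called.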

How the data were processed

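One stranded RNA-Seq library was made per mouse, from olfactory mucosa. Reads were assigned by the authors with kallisto to UCSC mouse transcripts with longer OR models (mm10 in the submitters' processing notes; the kallisto version is not given in the sources used here) and the deposited values are estimated counts, TPM, and transcript and effective lengths. How strand was used in counting is not given in the sources used here. The labels gave each mouse's group and number. They do not say whether mice with the same number shared a litter, and the correlations of same-numbered mice's deviations were 0.132, 0.171 and 0.0912.

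Estimated counts were summed per gene and rounded. FPKM was computed from them with the effective length of the longest transcript, a choice made after the data were seen. Size factors were DESeq2 1.42.0 medians of ratios over all genes or over intact ORs, and edgeR 4.0.16 in R 4.3.3 gave quasi-likelihood F-tests with Benjamini-Hochberg adjustment at 0.05. Genes with at least 1 rounded count in some mouse were tested. Single values were compared with exact permutation tests, two-sided, in scipy 1.17.1. Log2 ratios used a pseudocount of 0.5. Coding sequences of GENCODE M21 were aligned with Biopython 1.88. Amino acid sequences were not used here, and the coding stretches of one pair of members are not reported here. The fits were tested on simulated counts.

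The members were set by gene name alone, but they and the lists were chosen with earlier results of these data known. The named members were, by a rule, the 10 members with the largest fold change in each direction (called, a mean of at least 10 counts, groups apart), the 8 highest in the wild-type, those upregulated among all genes, those at or near 0, pairs of at least 90% identity called in opposite directions, and the members most like 4 of them; Olfr1196 was added as the closest pair.

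Alternatives were TMM normalization, DESeq2's Wald test, a filter at a mean of 10 counts, a block for the replicate number, fits without 1 mouse, other size factors and totals, and the TPM values.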

Additional observations from a re-analysis of the deposited data

How the results depend on the processing

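Among ORs, 52 members were underrepresented and 13 overrepresented when libraries were scaled to their total count on intact ORs, against 26 and 23. Olfr1247 then turned from 0.72 to -0.046 (log2, not called). The other settings gave 26 to 30 underrepresented and 23 to 24 overrepresented members, and leaving out 1 mouse gave 22 to 26 and 21 to 24. In the fit over all genes, 45 to 56 members were down in the other settings and 38 to 48 without 1 mouse. The number up was 2 with a filter on low counts, 9 with the adjustment over intact ORs alone, and 0 to 6 without 1 mouse. With the replicate number as a block, 30 members were underrepresented and 24 overrepresented, and 48 were down and 6 up. The counts under these alternatives stand without the shares over all intact ORs or all genes, so they describe the members only. Mice of unlike number had correlations of -0.214 to 0.0941. Each wild-type mouse correlated best with its own number, as did RTP1,2DKO mice 1 and 2. RTP1,2DKO mouse 3 had 0.0941 with wild-type mouse 1 and 0.0912 with wild-type mouse 3. These values do not settle whether the numbers mark litters, and the labels do not say so, so the main fits did not pair the mice. The difference in the members' share of intact-OR counts was -1.57 to -0.939 percentage points without 1 mouse. The 20 members with whole counts took 0.817 ± 0.0539% of these counts in the wild-type and 0.540 ± 0.0154% in RTP1,2DKO (SD, n = 3). This is a difference of -0.277 percentage points from a smaller share, with groups that did not overlap (exact permutation test, p = 0.1). Of 684 values of the named members under these alternatives, 642 kept direction and call, 35 lost and 6 gained the call, and 1 reversed; 25 of the 35 were in the fit over all genes with 1 mouse left out. The cause was not tested. Members under 10 counts, 9 of the 100, are limited by depth.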

Other observations

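Values of further pairs with similar coding sequences were as follows. Olfr1216 and Olfr1218 had log2 fold changes of 0.89 and 0.91, and both were overrepresented. Olfr1262 and Olfr1263 had -0.88 and -0.84, and both were underrepresented. Olfr1168 and Olfr1173, 96.9% identical over their coding sequences, were both overrepresented among intact ORs, with log2 fold changes of 1.87 and 0.84. Olfr1202 and Olfr1204, 96.7% identical and both of MOR232, had log2 fold changes of -0.56 and 1.06, of which only that of Olfr1204 passed edgeR's quasi-likelihood test. Olfr1265 and Olfr1269, 95.7% identical and both of MOR228, had 0.48 and 1.86, of which only the latter passed. Olfr1206 was underrepresented at -1.55, and its relatives Olfr1205 and Olfr1201, 95.6 and 95.4% identical to it, were not called at -0.61 and 0.31. Whether the 2 members of a pair differed was not tested in these pairs. The median wild-type level was 2.76 FPKM for the 26 underrepresented, 2.53 FPKM for the 23 overrepresented and 1.3 FPKM for the 50 uncalled members. In RTP1,2DKO these medians were 0.607, 3.34 and 0.646 FPKM.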
